A study of Mus musculus with 4 samples.

Results

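The genes of sterol and fatty acid synthesis that SREBP transcription factors drive were compared between vascular smooth muscle cells (VSMCs) with and without deletion of Mmp14. The set was defined by name as 33 genes, in 3 roles: 18 enzymes of sterol synthesis, 8 enzymes of fatty acid synthesis and desaturation, and 7 regulators. A gene was kept where a row of the array table named it and no other gene, and 30 of the 33 met this rule, out of 22180 genes with such a row in all. These were 16 sterol, 7 fatty acid and 7 regulator genes. The rows of Idi1 and Scd2 also carried another symbol and Acat2 had no listed row, so these 3 genes have no value here. The genes were picked by name and not by a cutoff on the measured values. Earlier results of these data were known when the set was chosen, so the choice was not blind to them. All 30 genes lay above the level used to filter dim genes, so none was lost to the filter.

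RNA came from primary VSMCs, the contractile cells of the arterial wall, grown for 5 days from mouse thoracic aorta stripped of adventitia. The knockout group was SM22α-Cre(+)Mmp14(fl/fl)Apoe(−/−) and the control group SM22α-Cre(−)Mmp14(fl/fl)Apoe(−/−), with 2 arrays each. Mmp14, which encodes the cell-surface metalloproteinase MT1-MMP, was thus floxed in all mice, and all lacked Apoe, a lipoprotein component whose loss raises plasma cholesterol, and had received a Western diet for 3 months. Cre was driven from the SM22α promoter, which is active in smooth muscle, so other cells in a culture need not have lost Mmp14. The labels give no age or sex, and since the design text speaks of independent mouse pairs, array spread here holds animal, culture and hybridisation effects.

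SREBP proteins are made as membrane-bound precursors in the endoplasmic reticulum. When membrane cholesterol is low, the escort protein Scap carries them to the Golgi, where proteases release the part that enters the nucleus and activates genes of cholesterol and fatty acid synthesis. When cholesterol or oxysterols are plentiful, Insig proteins retain Scap in the endoplasmic reticulum and the pathway is quiet. SREBP-2, the product of Srebf2, acts mainly on sterol genes and SREBP-1c, a product of Srebf1, mainly on fatty acid genes. Loading of vascular smooth muscle cells with cholesterol is a known feature of atherosclerotic plaques.

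SREBP binds sterol regulatory elements close to the start of its target genes, usually beside sites for NF-Y (CCAAT) and Sp1 (GGGCGG). RefSeq promoter windows of build GRCm38.p6, running from 250 bases before to 50 bases after a gene start, were held for 24 of the 30 genes. The letters CCAAT, on either strand, stood in a window of 20 of these 24 genes, against 41.1% of all 27025 genes with a window. By role they stood in 13 of 13 sterol, 2 of 5 fatty acid and 5 of 6 regulator genes. GGGCGG, on either strand, stood in a window of 20 of the 24 genes, against 38.2% of all genes. By role it stood in 12 of 13 sterol, 2 of 5 fatty acid and 6 of 6 regulator genes. A strict form of the sterol element core, TCACNCCAC, was found on either strand in 1 of the 24, Hmgcs1, at position -137 from the gene start, against 1.44% of all genes. The E-box form TCACGTGA was in 0 of the 24, against 1.12% of all genes. These matches describe letters in a short window and do not show binding. The 250 bases before the gene start are given below for the 4 genes at an unadjusted p under 0.05 and for Hmgcs1, which held the strict element. Capitals mark TCACNCCAC, CCAAT and GGGCGG, read on either strand. In Fasn a forward and a reverse CCAAT overlap, and in Acly the only CCAAT lay after the start, at position 38, and is not shown. The positions are chr10:76531355-76531604, plus strand, for Lss, chr11:120824548-120824797, minus strand, for Fasn, chr11:100528001-100528250, minus strand, for Acly, chr13:45389492-45389741, plus strand, for Mylip, and chr13:119690101-119690350, plus strand, for Hmgcs1.
Lss: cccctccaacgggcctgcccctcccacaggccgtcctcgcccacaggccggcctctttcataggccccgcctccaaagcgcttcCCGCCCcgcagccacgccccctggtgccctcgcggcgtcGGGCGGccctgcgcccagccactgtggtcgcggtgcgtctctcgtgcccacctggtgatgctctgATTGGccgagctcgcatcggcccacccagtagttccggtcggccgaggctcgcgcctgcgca
Fasn: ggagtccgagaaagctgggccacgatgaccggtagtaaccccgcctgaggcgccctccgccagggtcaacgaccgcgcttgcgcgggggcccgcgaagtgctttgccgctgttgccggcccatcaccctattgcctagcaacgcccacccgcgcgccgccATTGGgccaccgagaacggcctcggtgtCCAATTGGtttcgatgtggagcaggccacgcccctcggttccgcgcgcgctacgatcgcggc
Acly: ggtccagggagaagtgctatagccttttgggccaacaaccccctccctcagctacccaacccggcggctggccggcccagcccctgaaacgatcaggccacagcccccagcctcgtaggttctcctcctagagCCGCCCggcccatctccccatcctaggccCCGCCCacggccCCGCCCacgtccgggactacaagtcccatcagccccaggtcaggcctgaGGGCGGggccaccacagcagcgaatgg
Mylip: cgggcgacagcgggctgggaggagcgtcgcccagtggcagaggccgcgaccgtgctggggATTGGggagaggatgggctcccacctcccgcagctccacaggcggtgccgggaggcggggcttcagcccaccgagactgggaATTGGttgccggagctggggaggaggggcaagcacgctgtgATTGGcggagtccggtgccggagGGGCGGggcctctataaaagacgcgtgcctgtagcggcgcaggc
Hmgcs1: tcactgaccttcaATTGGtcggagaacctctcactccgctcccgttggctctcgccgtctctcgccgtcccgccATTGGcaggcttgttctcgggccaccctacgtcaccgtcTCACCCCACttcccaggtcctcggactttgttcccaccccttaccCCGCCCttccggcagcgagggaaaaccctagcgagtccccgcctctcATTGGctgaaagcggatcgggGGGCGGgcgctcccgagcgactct

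Values are log2 expression levels after RMA, and a difference of -1 is a halving of the level. Mmp14 itself read 8.27 and 8.19 in the knockout arrays, against 8.71 and 9.05 in the control arrays, a log2 difference of -0.65 (limma, adjusted p = 0.319). Some probes of the row may lie outside the floxed part, which limits it as a check of the labels. The smooth muscle transcripts Acta2, at 11.4 and 10.9 in knockout against 11.3 and 11.0 in control arrays, and Tagln, at 10.4 and 9.81 in knockout against 10.5 and 9.77 in control arrays, were well above the filter level of 3.02 in both groups. Macrophage transcripts were present in both groups too and moved with genotype: all 19 tested macrophage markers, of 20 listed, were higher in knockout arrays, and 10 of 13 tested endothelial markers, of 15 listed, were lower. Of these 10, Tie1, Esam, Robo4 and Icam2 had knockout means below the filter level. They passed it through their higher control arrays, so the filter favoured their direction. Cd163 of the macrophage list lay below the filter level in the knockout and the control arrays. Across all 12550 genes tested, limma called 0 genes (0%) at an adjusted p under 0.05, and 1465 genes (11.7%) had an unadjusted p under 0.05. The median difference of all genes was -0.052. With 2 arrays against 2, an exact two-sided permutation test cannot give a p below 0.333, so single genes rest on the fit across all genes.

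Synthesis genes read lower in the knockout cultures: the difference was below 0 for 19 of 23 sterol and fatty acid genes, 12 of 16 and 7 of 7. Among all genes tested 58.3% were below 0. The median log2 difference was -0.27 for the sterol genes and -0.36 for the fatty acid genes. Of the 7 regulators 6 were lower, with a median of -0.15, and Mylip, which promotes loss of the LDL receptor, was higher. None of the 30 genes passed the test over all genes (limma, adjusted p 0.259 to 0.940), so the differences stand as values. At an unadjusted p under 0.05 there were 3 genes lower, Lss, Fasn and Acly, against a background of 6.78%, and 1 higher, Mylip, against 4.89%. The groups did not overlap for 19 of the 30 genes, where 44.3% of all genes did not: the knockout arrays were the lower ones for 18, where 27.5% of all genes showed this, and the higher ones for 1, where 16.7% did. In bulk cultures fewer cells of a type and less RNA per cell cannot be told apart. The macrophage markers, with a median difference of 1.16, and the endothelial markers, with -0.63, moved between the same groups, and their part in the sterol, fatty acid and regulator values was not tested. Of the endothelial markers, 4 had knockout means below the filter level and passed it through their control arrays.

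**Figure D1:**
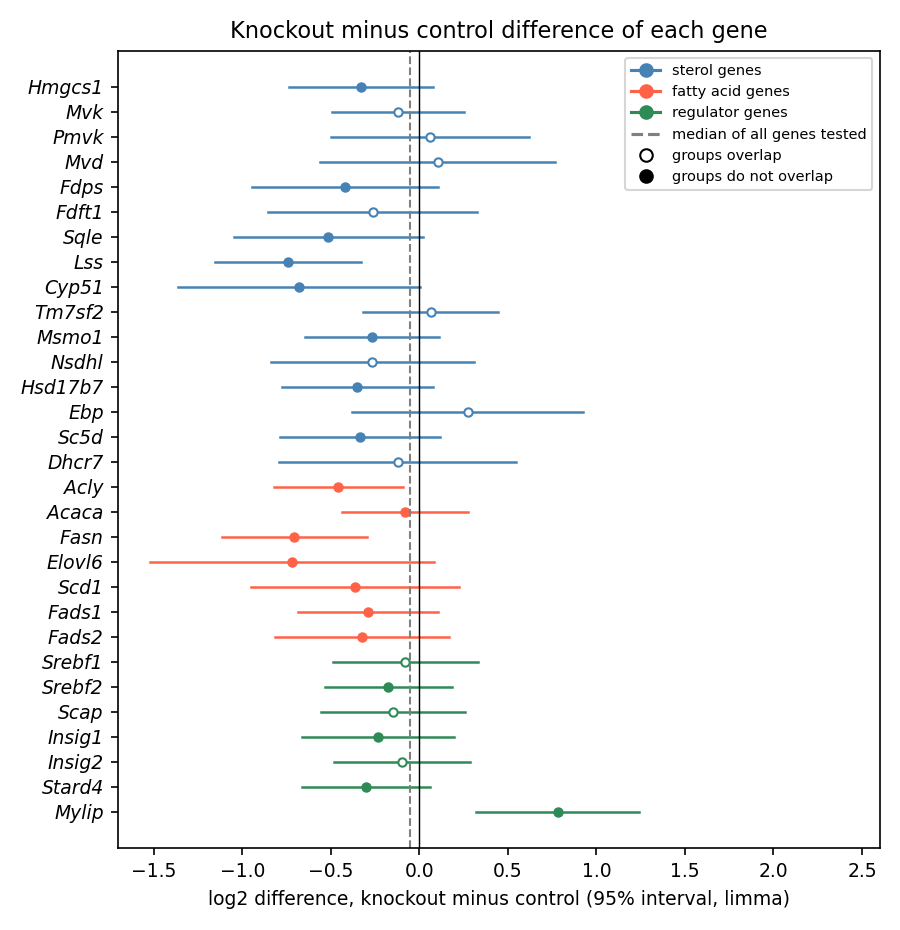
Log2 difference, knockout minus control, for each of the 30 genes with its 95% interval from limma, grouped by role; filled points mark genes whose knockout and control arrays do not overlap, and the dashed line is the median of all genes tested. Intervals of Lss, Fasn and Acly lie below 0, that of Mylip above 0, and the other 26 include 0.

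The sterol genes with the largest differences were Lss, Cyp51 and Sqle, which act in turn around lanosterol, the first sterol ring structure of the pathway, but that order depended on single arrays for Cyp51 and Sqle. Lss, lanosterol synthase, which closes the ring, read 4.15 and 3.97 in knockout arrays, against 4.90 and 4.70 in control arrays. The groups did not overlap, and the means of 4.06 ± 0.13 in knockout and 4.80 ± 0.14 in control arrays (SD, n = 2 each) gave a log2 difference of -0.74 (SE 0.16, 95% interval -1.15 to -0.33; limma, adjusted p = 0.259), or 0.598 times the control level. Cyp51, the lanosterol demethylase that acts next, read 6.79 and 6.38 in knockout arrays, against 6.98 and 7.54 in control arrays. Its arrays did not overlap, but the control arrays were 0.56 apart, and the difference was -0.68 (SE 0.26; limma, adjusted p = 0.431). Without control replicate 2 it was -0.40, smaller in size than Sc5d and Hsd17b7, both at -0.43 in that fit. Sqle, squalene epoxidase, a rate-controlling step that feeds Lss, read 7.24 and 6.76 in knockout arrays, against 7.51 and 7.51 in control arrays. The control arrays were nearly equal, both knockout arrays were below them, and the difference was -0.51 (SE 0.20; limma, adjusted p = 0.442). Without knockout replicate 2 it was -0.27, smaller in size than Hmgcs1 at -0.39 and Dhcr7 at -0.38 in that fit.

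Before squalene, Fdps, which makes the farnesyl diphosphate shared by sterols and protein prenylation, read 6.83 and 6.47 in knockout arrays, against 6.92 and 7.22 in control arrays, a difference of -0.42 (SE 0.20). Knockout array 1 and control array 1 were only 0.092 apart, so the separation was narrow, and leaving out knockout replicate 2 gave -0.24 and leaving out control replicate 2 gave -0.27. Hmgcs1, the cytosolic synthase that makes HMG-CoA, differed by -0.33 without overlap (-0.21 without control replicate 2), and Mvk, mevalonate kinase, by -0.12 with overlap. The next kinase and decarboxylase, Pmvk and Mvd, differed by 0.061 and 0.10 with overlap, and Fdft1, squalene synthase, by -0.26 with overlap, its knockout arrays reading 8.16 and 7.61.

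After Cyp51 the values were mixed. Hsd17b7, the sterol 3-ketoreductase, read 6.88 and 6.62 in knockout arrays, against 7.18 and 7.02 in control arrays, a difference of -0.35 (SE 0.16). Sc5d, the sterol desaturase that precedes Dhcr7, read 8.05 and 7.76 in knockout arrays, against 8.34 and 8.15 in control arrays, a difference of -0.34 (SE 0.17). Neither gene overlapped between groups, neither interval excluded 0, and without knockout replicate 2 the differences were -0.22 for Hsd17b7 and -0.19 for Sc5d. Msmo1, the C4-methylsterol oxidase, differed by -0.27 without overlap and Nsdhl, which acts with it in removing the C4 methyl groups, by -0.26 with overlap (-0.049 without control replicate 2 and -0.10 without knockout replicate 2). Tm7sf2, the C14 sterol reductase, Ebp, the sterol isomerase, and Dhcr7, the last reductase of the route through 7-dehydrocholesterol, differed by 0.065, 0.27 and -0.12, all with overlap. The Ebp value rested on control array 1, at 5.51, since the knockout arrays at 6.14 and 6.08 and control array 2 at 6.16 were close together.

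**Figure D2:**
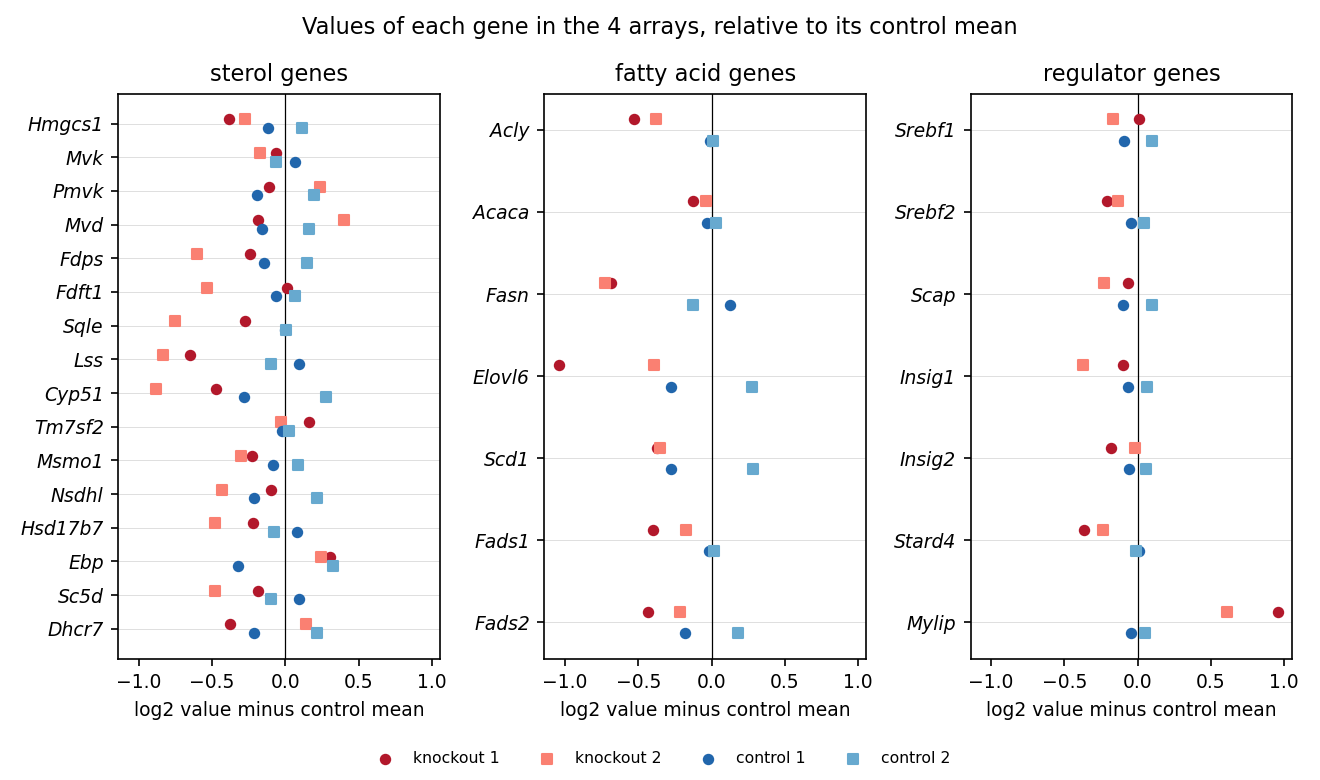
Log2 value of each gene in each array minus the mean of its control arrays, in 3 panels by role; circles are replicate 1, squares replicate 2, reds knockout and blues control. In the fatty acid panel both knockout arrays lie left of both control arrays for all 7 genes, narrowly for Acaca, and Mylip is the gene far to the right.

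All 7 fatty acid genes were lower in both knockout arrays than in both control arrays, against 27.5% of all genes, and 6 of 7 were after a second quantile normalization, against 26.5%. Fasn, fatty acid synthase, read 6.42 and 6.38 in knockout arrays, against 7.23 and 6.98 in control arrays. The means were 6.40 ± 0.03 in knockout and 7.10 ± 0.18 in control arrays (SD, n = 2 each), a log2 difference of -0.71 (SE 0.16, 95% interval -1.11 to -0.30; limma, adjusted p = 0.265), or 0.613 times the control level. Acly, ATP citrate lyase, which supplies cytosolic acetyl-CoA to both fatty acid and sterol synthesis, read 6.16 and 6.31 in knockout arrays, against 6.68 and 6.70 in control arrays. Its nearest knockout and control arrays were 0.37 apart. The difference was -0.46 (SE 0.14, 95% interval -0.82 to -0.090; limma, adjusted p = 0.356), or 0.729 times the control level. Elovl6, which elongates palmitate, read 3.77 and 4.42 in knockout arrays, against 4.53 and 5.09 in control arrays. Its difference of -0.72 (SE 0.31) was the numerically largest of the 7, but the arrays within each group were 0.65 and 0.56 apart. Leaving out knockout replicate 1 gave -0.39 and leaving out control replicate 2 gave -0.44.

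Scd1, the stearoyl-CoA desaturase that makes monounsaturated fatty acids, read 7.35 and 7.36 in knockout arrays, against 7.44 and 8.00 in control arrays. Control array 2 set most of its difference of -0.36 (SE 0.22), which was -0.083 without that array. The desaturases of polyunsaturated fatty acids, Fads2 and Fads1, were also lower. Fads2 read 6.82 and 7.04 in knockout arrays, against 7.07 and 7.43 in control arrays, a difference of -0.32 (SE 0.19), which was -0.15 without control replicate 2. Fads1 read 6.96 and 7.18 in knockout arrays, against 7.34 and 7.37 in control arrays, a difference of -0.29 (SE 0.15), which was -0.18 without knockout replicate 1. Acaca, acetyl-CoA carboxylase 1, the committed step between Acly and Fasn, read 4.70 and 4.78 in knockout arrays, against 4.79 and 4.85 in control arrays. Its difference of -0.080 (SE 0.14) was near the median of all genes, and the nearest knockout and control arrays were 0.0098 apart.

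Among the regulators, Mylip was the gene that read higher in knockout cultures. It encodes the ubiquitin ligase IDOL, is induced by the sterol-activated LXR receptors, and directs the LDL receptor to degradation. Mylip read 5.48 and 5.13 in knockout arrays, against 4.47 and 4.57 in control arrays. The groups were separated by 0.56, and the means of 5.30 ± 0.25 in knockout and 4.52 ± 0.07 in control arrays (SD, n = 2 each) gave a log2 difference of 0.78 (SE 0.18, 95% interval 0.32 to 1.24; limma, adjusted p = 0.268), or 1.72 times the control level. Leaving out single arrays gave 0.61 to 0.95.

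The SREBP genes and their escort machinery had small differences. Srebf2 read 6.99 and 7.06 in knockout arrays, against 7.16 and 7.24 in control arrays, a difference of -0.17 (SE 0.14, 95% interval -0.53 to 0.18). Srebf1 differed by -0.079 (SE 0.16) with overlap. Scap read 6.50 and 6.34 in knockout arrays, against 6.47 and 6.67 in control arrays, a difference of -0.15 (SE 0.16) with overlap. Scap had 2 rows, and their mean gave -0.11 without overlap. These transcript levels do not report how much SREBP was cleaved or nuclear. Insig1, itself an SREBP target, read 7.42 and 7.15 in knockout arrays, against 7.46 and 7.59 in control arrays, a difference of -0.23 (SE 0.16). Knockout array 1 and control array 1 were 0.032 apart, and the difference was -0.098 without knockout replicate 2. Insig2 read 5.31 and 5.47 in knockout arrays, against 5.43 and 5.55 in control arrays, a difference of -0.099 (SE 0.15). Stard4, a cytosolic sterol carrier and SREBP target, read 4.19 and 4.32 in knockout arrays, against 4.57 and 4.55 in control arrays. Its groups did not overlap, and the difference was -0.30 (SE 0.14; limma, adjusted p = 0.485).

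The spread inside a group was as large as many of these differences. The sterol genes differed by a median absolute value of 0.31 between the knockout arrays and 0.21 between the control arrays, against 0.27 between the group means. For the fatty acid genes these values were 0.15, 0.25 and 0.36, and for the regulators 0.17, 0.12 and 0.17. Of the 30 genes, 20 had their highest value in control array 2, where 25.4% of all genes did. The lowest value fell in knockout array 2 for 11 of 16 sterol genes and in knockout array 1 for 6 of 7 fatty acid genes, against 28.2% and 29.0% of all genes. Knockout array 2 lay below knockout array 1 for 12 of 16 sterol genes and above it for 6 of 7 fatty acid genes, where it lay above for 6642 of all 12550 genes. That difference between branches rests on 1 array against 1 array. Without control replicate 2 the medians were -0.19 for the sterol genes, -0.28 for the fatty acid genes and -0.050 for the regulators, and 23 of the 30 genes were below 0.

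**Figure D3:**
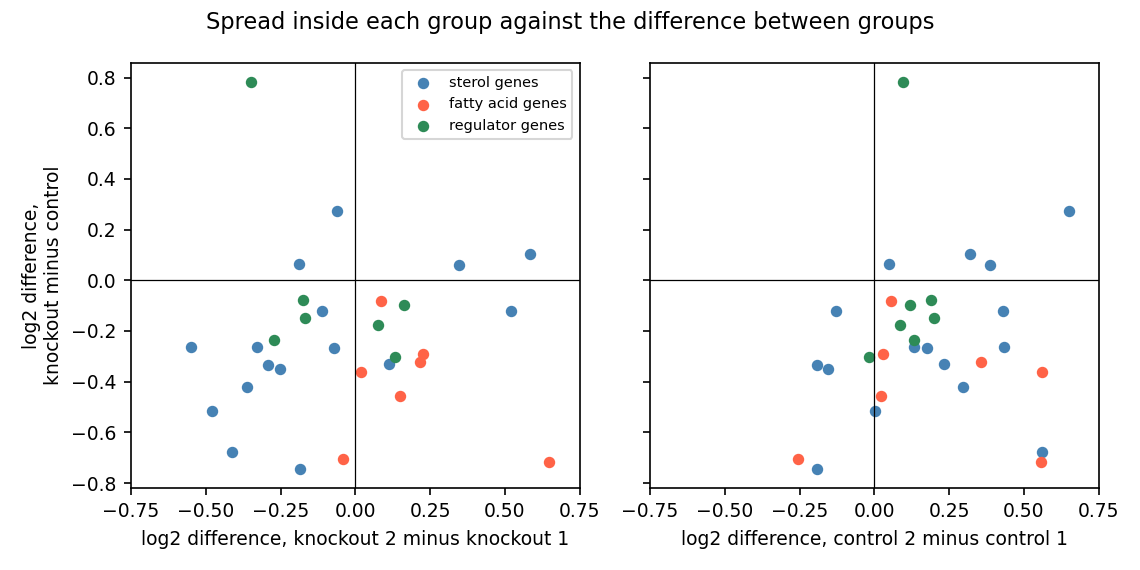
Log2 difference between the group means of each gene (vertical, knockout minus control) against the log2 difference between its knockout arrays (left panel, array 2 minus array 1) and its control arrays (right panel, array 2 minus array 1), coloured by role. Fatty acid genes lie mostly right of 0 and sterol genes mostly left of 0 in the left panel, and 24 of 30 genes lie right of 0 in the right panel. Of all 12550 genes tested, 5919 read higher in control array 2 than in control array 1.

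Other genes of the same metabolism did not share one direction. Of 40 further sterol and fatty acid genes listed, 30 had a row of their own and 27 were tested. Of these, 10 were higher and 17 lower, where 58.3% of all genes were lower, with a median of -0.063 and 0 called. At an unadjusted p under 0.05 there were 3 lower, where 6.78% of all genes were, and 1 higher, where 4.89% were. Me1, malic enzyme, which supplies NADPH for lipid synthesis, differed by -0.76 (SE 0.26), Aacs, acetoacetyl-CoA synthetase, by -0.52 (SE 0.14) and Ggps1, which makes geranylgeranyl diphosphate, by -0.45 (SE 0.16). Npc1, which exports cholesterol from lysosomes, differed by 0.53 (SE 0.20). The LXR targets listed beside Mylip had 6 of 7 tested genes higher, where 58.3% of all genes were lower, and a median of 0.65. Of these, 0 were called (limma, smallest adjusted p = 0.356) and 1 was higher at an unadjusted p under 0.05, where 4.89% of all genes were. Pltp, the phospholipid transfer protein, read 7.05 and 6.11 in knockout arrays, against 5.39 and 5.54 in control arrays, a difference of 1.11. Smpdl3a, a phosphodiesterase gene, differed by 0.82 and Abca1, the cholesterol exporter, by 0.47, both without overlap, while Nr1h3, the LXRα gene, differed by 0.091. The macrophage markers were higher in the same knockout arrays, 19 of 19 with a median of 1.16. Knockout array 2 lay above knockout array 1 for 6 of 7 LXR targets and 14 of 19 macrophage markers, where it did for 6642 of all 12550 genes. That compares 1 array with 1 array, and the part of macrophage transcripts in the LXR target values was not tested.

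The markers of other cells were read array by array beside these genes. The 19 tested macrophage markers had a mean log2 level of 8.13 and 8.44 in knockout arrays, against 7.16 and 7.16 in control arrays, and 17 did not overlap, all higher, where 16.7% of all genes were higher without overlap. Their named members Mrc1, Ptprc, Adgre1 and Msr1 differed by 2.08, 1.75, 1.74 and 1.66. The 13 tested endothelial markers averaged 4.23 and 4.29 in knockout arrays, against 5.27 and 4.94 in control arrays, with Cdh5, Pecam1, Emcn and Erg at -2.51, -2.49, -2.48 and -1.23. The other 3 endothelial markers tested went the other way, Kdr by 0.32 without overlap and Vwf and Flt1 by 0.29 and 0.10 with overlap. Tie1, Esam, Robo4 and Icam2, all lower, had knockout means below the filter level and passed it through their control arrays. Smooth muscle markers averaged 6.70 and 6.31 in knockout arrays, against 6.57 and 6.43 in control arrays. Their median difference was -0.0055, with 5 higher and 7 lower, where 58.3% of all genes were lower. Smtn, Cald1 and Myocd differed by -0.55, -0.17 and -0.14 without overlap, 3 of 12, where 27.5% of all genes were lower without overlap. The nearest Myocd arrays were only 0.0018 apart. Cnn1 and Lmod1 differed by 0.39 and 0.35 with overlap. Of 10 fibroblast markers 7 were tested, 4 higher and 3 lower, and averaged 6.67 and 6.69 in knockout arrays, against 6.93 and 7.19 in control arrays. The median difference of these 7 was 0.037. Cd34 and Dpt differed by -2.40 and -1.51 and Col1a1 by 0.29. Lum and Dcn differed by 0.74 and 0.46 and Pdgfra by -0.29, with overlap.

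Adipocytes surround the aorta and also make fatty acids. Their hormone gene Adipoq read 2.73 and 2.42 in knockout arrays, against 2.39 and 2.10 in control arrays, and Lep, Cidec, Ucp1 and Retn were also below the filter level of 3.02. The 4 adipocyte markers tested, Plin1, Fabp4, Lipe and Pparg, had differences of 0.044 to 0.53, all with overlap. Of these Fabp4, which endothelial cells and macrophages also express, read 9.60 and 10.01 in knockout arrays, against 8.85 and 9.71 in control arrays. Proliferation genes, of which 15 were tested, had a median difference of -0.18, with 14 lower and 1 higher, where 58.3% of all genes were lower. They varied more within groups than between them, with mean levels of 5.48 and 6.52 in knockout arrays, against 5.93 and 6.45 in control arrays. Knockout array 1 held the lowest value for 13 of the 15, where it did for 29.0% of all genes, so their shared direction leans on that array. Foxm1 and Rrm2 differed by -0.50 and -0.074 and Pcna by 0.37 without overlap. The part of proliferation in the sterol and fatty acid values was not tested.

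**Figure D4:**
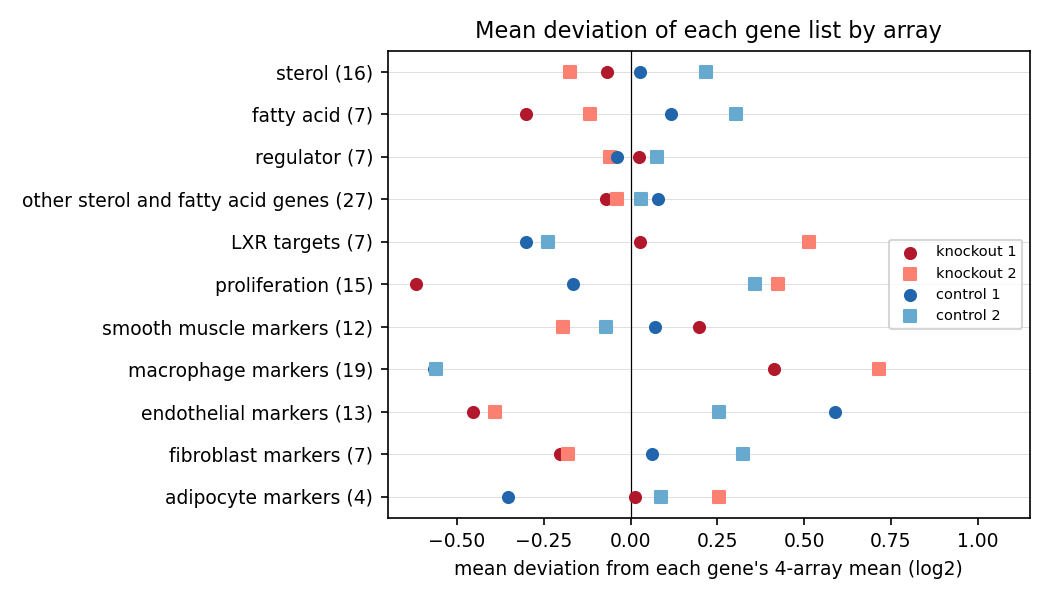
Mean deviation of each gene list in each array from the genes' own 4-array means, on the log2 scale, with the number of genes tested in brackets; reds are knockout, blues control, circles replicate 1 and squares replicate 2. Sterol and fatty acid genes lie left in both knockout arrays, macrophage markers lie right in them, and proliferation genes separate array 1 from array 2 in both groups.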

How the data were processed

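Per the series' design text, RNA of cultured aortic VSMCs was hybridised to Mouse Gene ST 2.1 arrays, 2 knockout and 2 control. The deposited values are log2 expression levels of 41345 rows which the authors made with RMA, as the submitters' processing notes state. The RMA software, its version, the chip definition and the build are not stated in these sources. Values ran from 1.17 to 12.4, and the log2 scale was inferred from this range. Precision is limited by the number of arrays, since depth does not apply. The platform annotation named the rows: 23521 had 1 symbol, 1814 several, and 16010 are unnamed here; gene numbers of 23328 matched the RefSeq table and 0 symbols changed. For genes with several rows, 1082 of 22180, the row of highest mean represents the gene. A mean of at least 3.02, the median row mean, was required, which 12550 genes met. They were fitted in limma 3.58.1 under R 4.3.3 (lmFit, eBayes; knockout minus control, no covariates), with Benjamini-Hochberg adjustment over all of them. matplotlib 3.10.9 drew the plots.

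Members, lists and tests were chosen with earlier results of these data known. All array values are given for members at an unadjusted p under 0.05 and up to 5 others per role with the largest absolute differences. In the other lists up to 4 tested genes with the largest differences without overlap are named by rule. The markers Cnn1, Lmod1, Lum, Dcn and Pdgfra were named after their values were seen. Mmp14, Tagln, Apoe and Acta2, the adipocyte markers and Cd163 are named as checks, Acta2, Cd163 and the adipocyte markers after their values were seen. The array numbers in the titles are not said to mark mouse pairs.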

Additional observations from a re-analysis of the deposited data

How the results depend on the processing

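No member was called under any of the 14 alternatives run, which were the title number as a block, other filters, scalings, row rules and variance settings, a threshold of 0.10 and leaving out each array; the smallest adjusted p of a member (limma) was 0.199 in the fits that changed more than the variance setting. Of the 30 members, 23 kept the sign of their difference in every fit that held them, 11 fits per gene or 10 for the 7 members below the stricter filter. With the replicate number as a block 0 members were called, 4 lower members had an unadjusted p under 0.05 in place of 3, and no call changed; arrays of the same number deviated together with r = 0.045 across genes, and whether the numbers mark mouse pairs is not given. The count of lower members at an unadjusted p under 0.05 was 5 with no filter, with arrays centred on their median, with an eBayes trend and with a trend and robust estimation, and 2 to 5 without single arrays, with 5 without control replicate 1 or knockout replicate 1; the count of higher members was 1 to 2, highest without control replicate 2. Without single arrays 1 to 3 members lay wholly above and 19 to 25 wholly below the controls, where 27.7% to 31.7% of all genes lay wholly above and 41.4% to 43.4% wholly below. The medians without single arrays ran from -0.50 to -0.28 for fatty acid genes and from -0.22 to -0.050 for regulators, lowest in size without control replicate 2; under a second quantile normalization 6 of 7 fatty acid genes did not overlap. Over all genes the count at an unadjusted p under 0.05 was 929 with the stricter filter, which tests fewer genes, and 975 to 1535 without single arrays, lowest without control replicate 1. Signs turned without single arrays for Pmvk (-0.13 to 0.25), Mvd (-0.19 to 0.40), Fdft1 (-0.54 to 0.013), Tm7sf2 (-0.029 to 0.16), Ebp (-0.052 to 0.60), Dhcr7 (-0.38 to 0.14) and Srebf1 (-0.17 to 0.016); the cause was not tested.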
